A study of Mus musculus with 21 samples.

Results

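The integrin subunits of N202 mouse mammary tumour cells were followed while the cells adapted to growth on different tissues. The 10 subunits were the alpha subunits Itga2, Itga3, Itga5, Itga6 and Itgav and the beta subunits Itgb1, Itgb4, Itgb5, Itgb6 and Itgb8, out of 19937 genes with a probe set of their own on the array. They were taken by name, and each was read from its single probe set on Affymetrix Mouse Gene 1.0 ST arrays. A filter on low values kept 7300 of the 19937 genes and 9 of the 10 subunits, Itga5 being the one left out. The filter asks that the highest of a gene's 16 group means is at least 7.33 on the log2 scale, so a gene can pass through the groups in which it is high and still lie under that value in others, as Itgb6, Itgb8 and Itga2 did.

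The cells came from tumours of a Her-2/neu transgenic mouse and carried H2B-GFP, a green fluorescent histone, with resistance to G418. They were grown as spheroids on minced, revascularized tissue under the window of a dorsal skinfold chamber, 21 days to a passage, were selected with G418 in culture between passages and were sorted on GFP, and RNA was taken after renewed growth in culture. The groups were parental cells grown only in vitro (P0, 2 arrays), cells adapted to brain at passages P1, P2, P3 and P4 (2 arrays each), cells adapted to bone marrow and to lung at P1 to P4 (1 array each), cells on breast tissue at P1 (1 array) and a biological replicate of the brain adaptation at P1 and P2 (1 array each), here called the second experiment. All groups therefore derive from 1 cell line, and each adaptation series is a single lineage in which P2 descends from P1. The second array of a brain pair is labelled a technical replicate and was started, by the methods, from cells in culture, so the p-values measure the spread between cultures of one lineage and not between adaptations.

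Integrins are receptors of 1 alpha and 1 beta subunit that join the extracellular matrix to the actin or keratin cytoskeleton. Itgb1 pairs with many alpha subunits, giving the collagen receptor with Itga2, laminin receptors with Itga3 and Itga6 and the fibronectin receptor with Itga5, whereas Itgb4 pairs with Itga6 in hemidesmosomes, the rivets of epithelial cells. Itgav pairs with Itgb1, Itgb5, Itgb6 and Itgb8, and of these Itgb6 is largely restricted to epithelia, while the pairs with Itgb6 and Itgb8 are known to bind latent TGF-beta and release or present its active form. Every value below is a log2 RMA value of a probe set, and since probe sets differ in their response, values are compared between groups for one gene and never between genes.

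The promoters of the 4 subunits with the widest range over the arrays are shown here because these are the subunits on which most of the calls below rest. The windows, from RefSeq on GRCm38.p6, run from 250 bases before to 50 bases after the start, 5′ to 3′ on the strand of the gene, and for Itgb6, which has 2 entries, the outermost start was taken. In the order shown, the windows lie on chromosomes 2, 16, 12 and 13. Capitals mark the GC box GGGCGG on either strand. No capitals means that none of the motifs searched was found.
Itgb6, chr2.0:60722554-60722853, minus strand: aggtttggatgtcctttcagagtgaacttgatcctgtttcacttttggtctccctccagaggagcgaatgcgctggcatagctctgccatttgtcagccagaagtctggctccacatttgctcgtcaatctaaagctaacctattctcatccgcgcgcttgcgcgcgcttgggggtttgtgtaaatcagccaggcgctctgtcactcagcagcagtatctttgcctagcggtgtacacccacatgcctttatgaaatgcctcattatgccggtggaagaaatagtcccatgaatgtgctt
Itgb5, chr16.0:33829415-33829714, plus strand: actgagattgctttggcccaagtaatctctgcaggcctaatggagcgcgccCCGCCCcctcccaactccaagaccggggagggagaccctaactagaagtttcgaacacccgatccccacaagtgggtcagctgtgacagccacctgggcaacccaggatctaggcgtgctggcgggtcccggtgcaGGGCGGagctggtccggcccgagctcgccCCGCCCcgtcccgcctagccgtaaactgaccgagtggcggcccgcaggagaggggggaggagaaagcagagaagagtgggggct
Itgb8, chr12.0:119238227-119238526, minus strand: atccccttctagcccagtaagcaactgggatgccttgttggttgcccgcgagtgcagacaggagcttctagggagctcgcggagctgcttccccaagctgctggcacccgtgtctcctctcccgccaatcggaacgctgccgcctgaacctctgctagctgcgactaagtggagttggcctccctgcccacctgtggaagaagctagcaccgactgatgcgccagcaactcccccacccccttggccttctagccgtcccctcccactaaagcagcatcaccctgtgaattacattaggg
Itga2, chr13.0:114932051-114932350, minus strand: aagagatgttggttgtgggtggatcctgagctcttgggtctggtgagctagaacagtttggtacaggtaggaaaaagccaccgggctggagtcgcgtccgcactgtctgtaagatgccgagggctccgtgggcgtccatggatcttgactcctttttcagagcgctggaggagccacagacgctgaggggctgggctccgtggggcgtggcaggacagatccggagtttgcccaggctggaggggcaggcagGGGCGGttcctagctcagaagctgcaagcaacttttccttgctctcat
The motifs searched on both strands were the GC box, the AP-1 motif TGANTCA, the CRE motif TGACGTCA and the TATA box TATAAA, and no motif contains another. Among the 32851 promoter windows of 300 bases, 35.7% hold a GC box, 7.8% an AP-1 motif, 1.8% a CRE and 13.6% a TATA box. The Itgb5 window held 3 GC boxes and the Itga2 window 1, while the Itgb6 and Itgb8 windows held no match to any of the 4 motifs. Windows were found for 8 of the 10 subunits, without Itga6 and Itgb4.

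Markers of the epithelium of origin were present throughout. Of 9 markers of mammary epithelium, 8 passed the filter on low values, and their list had a summed level (log2 of the sum of its linear values) of 14.38 to 14.98 on the 21 arrays. The sum rests mostly on Krt8, Krt18 and Krt7, the highest of them, and would not show a fall in the others. Against the parental cells, 0 of the 8 were called higher and 1 lower at brain P1, 1 and 1 at P2 and 0 and 1 at P3 (limma, adjusted p under 0.05). Beside these, 5.55%, 13.3% and 0.658% of all genes were called. In 5 arrays, the second array of each brain group and the lung P1 array, the floor of the signal was raised, with a 5th percentile of 2.49 to 3.04 against 2.01 to 2.40 on the others. Markers of endothelium and of fibroblasts were all under the filter. Of 7 neuron and glia markers with a probe set only Mbp passed, at 6.66 to 7.50, and of 4 platelet markers only Ppbp, at 4.88 to 8.01. Of the leukocyte markers, Ptprc, which encodes CD45 and is present on nearly all leukocytes, lay between 3.52 and 4.55 on all arrays, and of the 9 listed only Cd68, a lysosomal protein of macrophages, passed. Its level was 7.62 to 8.48 in brain cells at P1 and P2 against 5.99 to 6.03 in parental cells and 6.03 to 6.36 on marrow and lung at P1 and P2. The part of other cells in the results below was not tested, and in bulk RNA fewer cells of a type and less RNA per cell cannot be told apart.

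**Figure D1:**
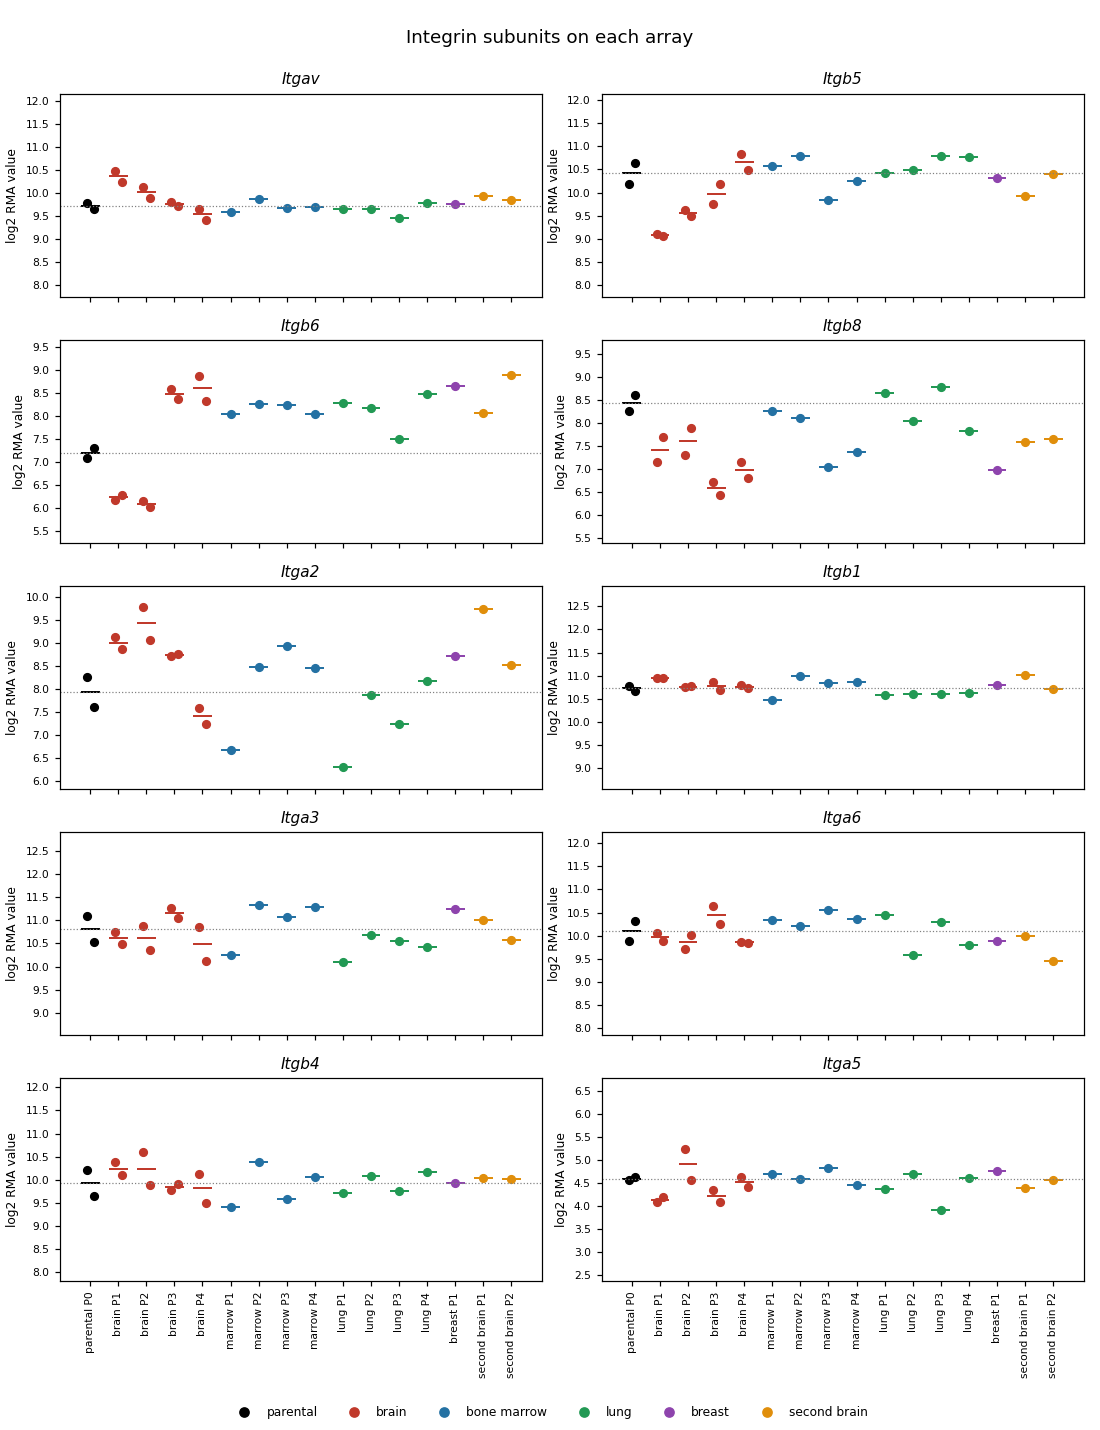
Log2 RMA value (vertical axis, of the same height in every panel) of each integrin subunit in the parental cells and each tissue and passage (horizontal axis). Each point is 1 array, each bar a group mean, and the dotted line the mean of the parental cells. Itgb6 lies at 6.02 to 6.30 in the brain cells of P1 and P2 of the first experiment and above 7.5 in all other adapted cells, the second brain experiment included, whereas Itgb1 stays within 0.541 over all arrays.

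The subunit that moved most clearly was Itgb6, the epithelial partner of Itgav. It lay at 7.08 and 7.31 on the parental arrays. On brain it lay at 6.18 and 6.30 at P1 and at 6.15 and 6.02 at P2, and then at 8.58 and 8.38 at P3 and at 8.87 and 8.33 at P4. The brain cells thus stood below the parental cells at the first 2 passages and above them at the last 2, with no overlap between the groups in either case. On marrow the values were 8.05, 8.26, 8.24 and 8.04 from P1 to P4, and on lung 8.29, 8.18, 7.50 and 8.48. The breast array gave 8.64, and the second experiment 8.06 at P1 and 8.89 at P2. All 11 of these arrays were above the parental arrays. In the order of its 16 group means, 4 of the 15 gaps between neighbours were wider than the spread between paired arrays (SD 0.203), and the widest, 0.96, separated the parental cells from brain P1. The values of the parental cells and of brain P1 and P2 lie under the filter value of 7.33.

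Against the parental cells, Itgb6 gave a lower value at brain P1 (-0.96 ± 0.21 SE on the log2 scale, limma, adjusted p = 0.0403) and at brain P2 (-1.11 ± 0.21, adjusted p = 0.0140). Both sides of these 2 tests lie under the filter value, which Itgb6 passed only through the groups where it is high, and with no filter neither was called (adjusted p = 0.242 and 0.123). It rose at brain P3 (1.29 ± 0.21, adjusted p = 0.0390) and at brain P4 (1.41 ± 0.21, adjusted p = 0.0245), with adjusted p of 0.339 and 0.267 under no filter. These 4 comparisons share the 2 parental arrays and are not independent. The calls at P1 and P3 were lost when any 1 of the arrays of P0, P1, P2 or P3 was left out (adjusted p = 0.0523 to 0.196 at P1 and 0.0704 to 0.196 at P3), that at P2 without any 1 array of P0 or P2 (0.0556 to 0.0774), and that at P4 without any 1 array of P0 or P1 or without the first of P4 (0.0580 to 0.118).

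Comparisons that do not use the parental arrays were stronger for Itgb6. The mean of brain P1 and P2 was 6.16 and that of P3 and P4 8.54, a difference of -2.38 ± 0.15 SE or 5.2-fold (limma, adjusted p = 2.6e-05). At the same passages, P1 and P2, Itgb6 was 4.09-fold lower on brain than on marrow and lung, with means of 6.16 and 8.20 (-2.03 ± 0.15, adjusted p = 8.03e-05). The early brain side of both lies under the filter value, so the sizes are less certain than the directions. In the second experiment at P1 and P2 it was 4.96-fold higher than in the first (2.31 ± 0.19, adjusted p = 0.000207). The first experiment enters this comparison with the same early brain mean under the filter value, so its size is less certain too. The low level of Itgb6 at the early brain passages was therefore found in the first experiment and not in the second, whose 2 arrays, at 8.06 and 8.89, compare with 8.33 to 8.87 at brain P3 and P4. These 3 calls held under every alternative run, the highest adjusted p being 0.0366. Cd68 was also called in these 3 comparisons, being higher in the early brain cells of the first experiment than in late brain (0.87 ± 0.24 SE, limma, adjusted p = 0.0310), in early marrow and lung (1.86 ± 0.24, adjusted p = 0.00123) and in the second experiment (second minus first -1.40 ± 0.30, adjusted p = 0.0193). Within late brain Cd68 lay at 6.60 and 6.87 at P3 and at 7.22 and 8.22 at P4, while Itgb6 was above the parental arrays at both passages. Cd68 lies under the filter value in early marrow and lung, at 6.03 to 6.36, and in the second experiment, at 6.58 to 6.82. Part of the late brain arrays, at 6.60 to 8.22, lie under it too. Cd68 passed the filter through groups where it is high, so these sizes are uncertain. Ppbp, a platelet chemokine, lay at 5.45 to 6.16 in early and at 5.77 to 7.13 in late brain, all under the filter value, which it passed through marrow P3 at 8.01. Ppbp was called lower in early than in late brain (-0.70). The part of these markers in the result was not tested. Of the 9 genes of the leukocyte list, the 8 besides Cd68 are under the filter and lie at or under 5.69 on every array. Cd68, at 5.90 or more, is therefore the largest single part of the summed level of the list. That sum is thus no measure apart from Cd68. It was 8.46 to 8.998 in early brain, 7.94 to 8.91 in late brain, 7.74 to 7.84 in early marrow and lung and 7.95 to 8.01 in the second experiment.

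Itgb5, the partner of Itgav that binds vitronectin, was also low at the early brain passages. It lay at 10.19 and 10.65 in the parental cells, at 9.11 and 9.05 at brain P1 and at 9.63 and 9.50 at brain P2. It then lay at 9.75 and 10.17 at P3 and at 10.83 and 10.49 at P4. The 4 early brain arrays were lower than all other arrays of the study for this gene. On marrow it lay at 10.57, 10.79, 9.83 and 10.26 from P1 to P4, on lung at 10.42 to 10.80, at 10.31 on breast and at 9.93 and 10.41 in the second experiment. Itgb5 fell at brain P1 (-1.33 ± 0.23 SE, limma, adjusted p = 0.0153) and, at the edge of the threshold, at P2 (-0.85 ± 0.23, adjusted p = 0.0463). The call at P1 was lost without the second parental array or either array of P1 (adjusted p = 0.083 to 0.108), and that at P2 without any 1 array of P0, P1 or P2 (0.0700 to 0.216) and with equal array medians, cyclic loess or chromosome medians subtracted. With no filter both were lost (adjusted p = 0.122 and 0.276). It was 1.98-fold lower in early than in late brain (-0.99 ± 0.16, adjusted p = 0.00344) and 2.37-fold lower in early brain than in early marrow and lung (-1.24 ± 0.16, adjusted p = 0.00123). The second experiment was 1.8-fold higher than the first (0.85 ± 0.20, adjusted p = 0.0278). That call was lost without any 1 array of brain P1 or P2 (0.0520 to 0.0789), with the passages taken as replicates and with no filter (0.186).

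Itgb8, the third of these partners, whose cytoplasmic tail differs from those of the other beta subunits, showed another course. It lay at 8.25 and 8.60 in the parental cells, at 7.14 and 7.70 at brain P1 and at 7.31 and 7.89 at P2. It was lowest at brain P3, at 6.73 and 6.44, and lay at 7.15 and 6.80 at P4. All 8 brain arrays of the first experiment were below the parental arrays. In the main fit it passed the test against the parental cells at P3 alone, where it fell (-1.84 ± 0.28 SE, limma, adjusted p = 0.0306), and gave -1.005 ± 0.28 at P1 (adjusted p = 0.0790), -0.82 ± 0.28 at P2 (0.0971) and -1.45 ± 0.28 at P4 (0.0597). With the stricter filter, equal array medians or a variance trend it was also called at P4. Both P3 arrays and the late brain mean of 6.78 lie under the filter value, which Itgb8 passed through other groups, so these sizes are uncertain. The call at P3 was lost without either parental array or the second array of P3 (adjusted p = 0.0537 to 0.231) and with no filter (0.2845). Itgb8 was higher in early than in late brain (0.73 ± 0.20, adjusted p = 0.0272), a call lost with no filter (0.1452) and without the second array of any brain group (0.0803 to 0.0954). Without the 5 arrays of raised floor, which include these, the difference was 0.29 (adjusted p = 0.485). It was lower in early brain than in early marrow and lung (-0.75 ± 0.20, adjusted p = 0.0272). That call was lost without the first array of P1 or P2 (0.0867 to 0.0969), with chromosome medians subtracted and with no filter (0.1538). On marrow it lay at 8.25, 8.11, 7.04 and 7.36 from P1 to P4, on lung at 7.82 to 8.77, at 6.97 on breast and at 7.59 and 7.65 in the second experiment.

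Itgav, the alpha subunit that these 3 beta subunits share, varied less. Its values were 9.79 and 9.65 in the parental cells, 10.49 and 10.25 at brain P1, 10.13 and 9.90 at P2, 9.80 and 9.71 at P3 and 9.67 and 9.43 at P4. The early brain arrays stood above all late ones. The marrow, lung, breast and second brain arrays lay between 9.46 and 9.94. Itgav was 1.45-fold higher in early than in late brain (0.54 ± 0.13 SE, limma, adjusted p = 0.0176) and 1.41-fold higher in early brain than in early marrow and lung (0.50 ± 0.13, adjusted p = 0.0258). The first call was lost without the first array of P1 or P2 or the second of P4 (adjusted p = 0.0563 to 0.0711) and with chromosome medians subtracted (0.37, adjusted p = 0.0549), and the other without the first array of P1 or P2 (0.0862 to 0.100). With no filter both were lost (adjusted p = 0.122 and 0.1705). Against the parental cells it gave 0.64 ± 0.18 at brain P1 (adjusted p = 0.0878). Itgav and the beta subunits Itgb5 and Itgb6 thus differed in opposite directions in both of these comparisons.

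**Figure D2:**
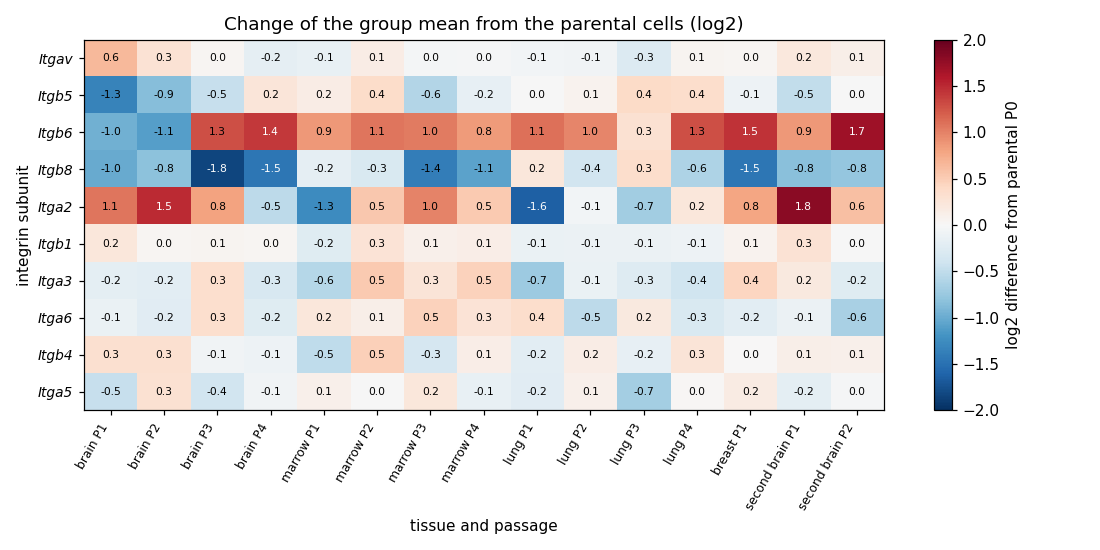
Difference of each group mean from the parental mean on the log2 scale (colour and printed value) for each integrin subunit (rows) in each tissue and passage (columns), with 2 arrays per group on brain in the first experiment and 1 elsewhere. Itgb6 is negative at brain P1 and P2 and positive in the other 13 groups, and Itga2 has its lowest values at P1 on marrow and lung.

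Itga2, the collagen-binding partner of Itgb1, had the widest range of the 10 subunits, from 6.30 to 9.78. It lay at 8.27 and 7.60 in the parental cells. On brain it lay at 9.12 and 8.88 at P1, at 9.78 and 9.07 at P2, at 8.71 and 8.77 at P3 and at 7.58 and 7.24 at P4. The early brain arrays were all above the late ones. In the second experiment it lay at 9.73 at P1 and 8.53 at P2, so that for Itga2 both experiments were above the parental arrays at P1 and P2. Itga2 rose 2.8-fold at brain P2 (1.49 ± 0.29 SE, limma, adjusted p = 0.0147) and gave 1.06 ± 0.29 at P1 (adjusted p = 0.0763). The call at P2 was lost without the second parental array or the first of P2 (adjusted p = 0.0815 to 0.0881) and with no filter (0.118). It was 2.2-fold higher in early than in late brain (1.14 ± 0.21, adjusted p = 0.00536). The mean of the second experiment was 1.20 ± 0.29 over the parental cells (adjusted p = 0.160), and its difference from the first was -0.08 with a 95% interval of -0.65 to 0.50.

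On marrow Itga2 lay at 6.68 at P1 and at 8.47, 8.93 and 8.45 at P2 to P4, and on lung at 6.30 at P1 and at 7.87, 7.25 and 8.17 at P2 to P4. Both P1 arrays were below every other array of the study. The comparison of P1 with P2 to P4 over both tissues was chosen after these values were seen. In it Itga2 was 3.25-fold lower at P1 (-1.70 ± 0.24 SE, limma, adjusted p = 0.0322), the call of 1 of 9 subunits beside 0.329% of all genes. The P1 side, with a mean of 6.49, lies under the filter value, which Itga2 passed through the groups where it is high, so this size is uncertain. The call was lost with no filter (adjusted p = 0.327) and without any 1 array of brain P1 or P3, which enter only through the spread (0.0723 to 0.0736). Without the lung P1 array and the other 4 of raised floor the difference was -1.51 (adjusted p = 0.9995, with 1 residual degree of freedom). Itga2 was 3.68-fold higher in early brain than in early marrow and lung (1.88 ± 0.21, adjusted p = 0.000597), and without these 5 arrays the difference was 1.77 (adjusted p = 0.0588). The marrow and lung side includes both P1 arrays, which lie under the filter value, so the size of this difference is uncertain too. Its neighbour on chromosome 13, Itga1, encodes another collagen-binding subunit and is not among the 10. Itga1 did not pass the filter, and lay at 6.96 and 6.25 at brain P1 and at 6.76 and 5.02 at P2 against 4.42 and 5.40 in the parental cells and 3.98 to 4.84 on the remaining arrays.

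Itgb1, the common partner, was the steadiest subunit. It lay between 10.48 and 11.02 on all arrays, and its largest difference in any comparison was 0.23 at brain P1, with a 95% interval of -0.13 to 0.59 (limma, adjusted p = 0.486). The laminin-binding subunits Itga3, Itga6 and Itgb4 passed no test in any of the 13 comparisons either. Itga3 lay between 10.09 and 11.34, and the marrow P1 and lung P1 arrays, at 10.24 and 10.09, were among its 3 lowest. Its largest difference was that between P1 and the later passages on these tissues (-0.73, 95% interval -1.29 to -0.17, adjusted p = 0.482). Itga6 lay between 9.46 and 10.64, with a largest difference of -0.38 in the second experiment (interval -0.88 to 0.13, adjusted p = 0.554). Its partner in hemidesmosomes, Itgb4, lay between 9.41 and 10.60, with a largest difference of -0.44 between P1 and the later passages on marrow and lung (interval -1.02 to 0.13, adjusted p = 0.853). The intervals of Itga3 and Itgb4 reach past a 2-fold change, so these data do not show that they were equal. Itga5, the fibronectin-binding partner of Itgb1, lay between 3.91 and 5.24 on all arrays, with 4.56 and 4.63 in the parental cells, and was not tested.

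Counted over the 9 tested subunits, brain P1 called 0 higher and 2 lower than the parental cells, beside 5.55% of all genes called in either direction. Brain P2 called 1 higher and 2 lower, beside 13.3%. At P3 there was 1 in each direction beside 0.658%, and at P4 1 higher and 0 lower beside 1.01%. The median change of the 9 was -0.13 at P1, -0.20 at P2, 0.05 at P3 and -0.18 at P4, against -0.02, -0.05, -0.10 and -0.19 over all genes. Early against late brain called 3 higher and 2 lower beside 27.5% of all genes, and early brain against early marrow and lung 2 higher and 3 lower beside 23.6%. The second experiment against the first called 2 higher and 0 lower beside 13.3%. With 9 genes, 1 gene more or less moves such a share by 11.1%. The share of all genes was taken in the main fit only, so the counts under other settings that follow cannot be set against one. With no filter on low values, and likewise without the 5 arrays of raised floor, 0 subunits were called at any brain passage against the parental cells. Without those 5 arrays Itgb6 was the one subunit still called in each of the 3 comparisons without the parental arrays.

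**Figure D3:**
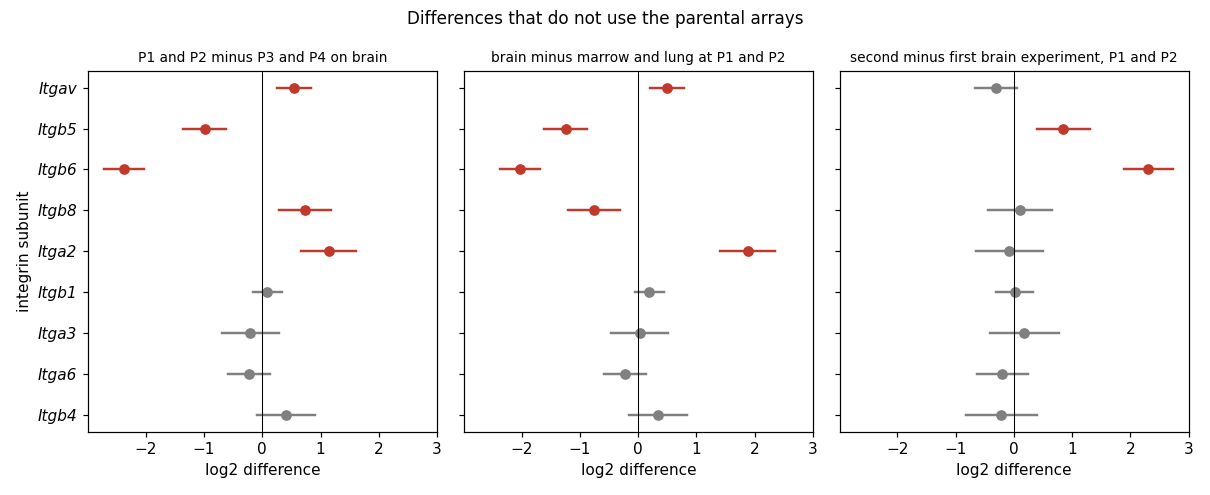
Log2 differences with 95% intervals (horizontal axis) of the 9 tested subunits in 3 comparisons that do not use the parental arrays, red where the adjusted p is under 0.05 and grey otherwise. Itgb6 lies farthest from 0 in all 3 panels, at -2.38, -2.03 and 2.31, and Itgb1, Itga3, Itga6 and Itgb4 are grey throughout.

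Averaged over their passages, marrow and lung showed no called subunit against the parental cells. On marrow 0 of 9 were called by limma and 2 had an unadjusted p under 0.05, beside 0.37% of all genes called. Itgb6 was at 0.96 ± 0.19 SE there (adjusted p = 0.112) and Itgb8 at -0.74 ± 0.24 (adjusted p = 0.459). On lung 0 were called, 1 had an unadjusted p under 0.05 and 0.205% of all genes were called, with Itgb6 at 0.92 ± 0.19 (adjusted p = 0.181). Marrow against lung called 0, with 3 at an unadjusted p under 0.05 and 0.123% of all genes. Those 3 were Itga2 (0.74 ± 0.21), Itgb8 (-0.63 ± 0.20) and Itga3 (0.55 ± 0.21), with adjusted p of 0.200, 0.242 and 0.331. Breast called 0 of 9, with 2 at an unadjusted p under 0.05 and 0.26% of all genes, and Itgb6 was at 1.45 ± 0.26 (adjusted p = 0.0804) and Itgb8 at -1.45 ± 0.34 (0.200). The second experiment called 0 against the parental cells, with 3 at an unadjusted p under 0.05 and 0.315% of all genes, and Itgb6 was at 1.28 ± 0.21 (adjusted p = 0.0562). Itgb6 crossed the threshold on marrow with chromosome medians subtracted, and on breast and in the second experiment under that setting and with cyclic loess, and in the second experiment also with a stricter filter.

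Of 17 further integrin subunits with a probe set, 16 were under the filter, among them the leukocyte subunits Itgb2, Itgal and Itgam. The exception was Itga8, a partner of Itgb1, which lay between 8.94 and 9.999 and was higher in early than in late brain (0.52 ± 0.15 SE, limma, adjusted p = 0.0331). Itgb3, a further partner of Itgav, was among the 16, at 6.86 and 6.85 in the parental cells, 7.33 and 6.96 at brain P1 and 5.21 to 6.59 at brain P3 and P4.

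The proteins that integrins bind or signal through were described by lists of genes. Of 39 matrix ligands with a probe set 20 passed the filter, and 2 rose and 0 fell at brain P1, 1 rose and 0 fell at P2, and 4 were higher and 2 lower in early than in late brain. Beside these counts of 2, 1 and 6 out of 20, 5.55%, 13.3% and 27.5% of all genes were called. The median change of the list at P1 was -0.36 against -0.02 for all genes. Ltbp1, which tethers latent TGF-beta to the matrix, lay at 8.15 and 8.37 in the parental cells, 9.02 and 9.20 at brain P1, 9.49 and 9.41 at P2 and 7.28 and 7.03 at P4. It rose at P1 (0.85 ± 0.18 SE, adjusted p = 0.0305) and P2 (1.19 ± 0.18, adjusted p = 0.00548) and fell at P4 (-1.10 ± 0.18, adjusted p = 0.0293). Both P4 arrays lie under the filter value, so the size of that fall is uncertain. Lama3, a chain of laminin-332, the ligand of the Itga3 and Itga6 receptors, lay at 6.92 and 6.75 in the parental cells and at 8.34 and 8.01 at brain P1, where it rose (1.35 ± 0.29, adjusted p = 0.0336) from a parental level under the filter value.

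Of 40 adaptors and kinases 32 passed, with 0 rising and 1 falling at brain P1, 0 and 2 at P2, and 4 higher and 5 lower in early than in late brain. These are 1, 2 and 9 of 32 against the same 5.55%, 13.3% and 27.5% of all genes. Their median change at P1 was -0.09. Tns4, a focal adhesion tensin that binds the tail of beta subunits, lay at 11.09 and 10.88 in the parental cells and fell to 6.17 and 5.51 at brain P1 (-5.15 ± 0.27 SE, adjusted p = 4.53e-05), with 9.49 and 9.46 at P2 and 10.53 to 11.53 at P3 and P4. The P1 values lie under the filter value, so the size of that fall is uncertain. Vcl, which encodes vinculin, fell at P2 (-0.81 ± 0.17, adjusted p = 0.0206) and was lower in early than in late brain (-1.07 ± 0.12, adjusted p = 0.000657). In the second experiment Tns4 lay at 11.08 and 11.23, 3.50 ± 0.24 over the first (adjusted p = 7.78e-05), and Vcl was 0.92 ± 0.15 over it (adjusted p = 0.00636).

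Among 16 lateral partners, membrane proteins that associate with integrins, 14 passed, with 0 rising and 3 falling at brain P1, 1 rising and 3 falling at P2, and 2 higher and 3 lower in early than in late brain. These are 3, 4 and 5 of 14, where 5.55%, 13.3% and 27.5% of all genes were called. Their median change at P1 was -0.06. Emb, which encodes embigin, lay at 7.36 and 7.11 in the parental cells, 5.64 and 5.46 at brain P1 and 4.55 and 4.38 at P2 (-2.77 ± 0.18 SE at P2, adjusted p = 9.22e-05). Its parental and early brain means lie under the filter value, which it passed through other groups such as marrow P4 at 8.06, so the size of the difference is uncertain. The syndecans Sdc1 and Sdc2, heparan sulphate co-receptors, fell at P1 (-1.16 ± 0.23, adjusted p = 0.0271, and -1.14 ± 0.20, adjusted p = 0.0165). Slc3a2, the CD98 heavy chain, which binds beta subunits, rose at P2 (1.11 ± 0.25, adjusted p = 0.0241). In the hemidesmosome list 8 of 10 passed, 1 rose and 0 fell at P1 (Lama3, which is also a ligand) and 0 rose and 1 fell at P2, namely Krt14, a basal keratin (-1.60 ± 0.32, adjusted p = 0.0164). That is 1 of 8 at each passage, beside 5.55% and 13.3% of all genes. Its median change at P1 was 0.34.

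The genes whose 16 group means resembled those of a subunit most closely are given as a description, among genes whose group means span at least 1. For Itgb6 these were Fam167a (Pearson r = 0.933), Tns2 (0.933) and Ak1 (0.928), Tns2 being a focal adhesion tensin. For Itga2 the closest was Plaur, the urokinase receptor (0.909), followed by Pim3 (0.891) and Atf6 (0.890). For Itgb5 they were Ptprf (0.907), Selenon (0.894) and Cnn2 (0.889), for Itgb8 Pcx (0.913), Sort1 (0.891) and Cnmd (0.888), and for Itgav Itpr3 (0.874), Rmdn2 (0.856) and Smim15 (0.849). For Itgb1 they were Qtrt2 (0.894), Hbegf (0.878) and Trmt61a (0.870), for Itga3 Dusp5 (0.902), Krt7 (0.860) and Gcnt2 (0.854), for Itga6 Ror1 (0.866), Mrps27 (0.847) and Ppp2r3c (0.817), and for Itgb4 Sipa1l3 (0.838), Cotl1 (0.792) and Slc9a8 (0.760). Within the 9 subunits, Itgb5 was the closest to Itgb6 (0.622) and Itgb1 the closest to Itga2 (0.768), while Itgav was the least alike to Itgb5 (-0.769). The group means share arrays, lineages and their normalization.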

How the data were processed

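RNA of 21 cultures was hybridized to 1 array each. The authors used RMA in Expression Console, and the deposited log2 values were analysed as they stand. Of 34760 probe sets, 21640 carry 1 gene symbol, 1321 several and 11799 none. Each gene was read from its probe set with the highest mean, and each of the 10 subunits has 1. The study kept 10522 probe sets against negative controls not used here, so that number was kept by the largest group mean. limma 3.58.1 (R 4.3.3) fitted 16 group means, leaving 5 residual degrees of freedom beside 3.9 from the prior, so the number of arrays limits the precision, and groups of 1 array are assumed to vary like those of 2. P-values were adjusted (Benjamini-Hochberg) over the kept probe sets and called under 0.05. The subunits and lists were chosen with earlier results of these data known. All 10 subunits are named, with further integrin subunits called or kept, up to 4 called members of a list with the lowest p at brain P1 or P2, and 3 genes most alike to each subunit. Cell type markers apart, genes named outside this rule, that is Itga1, Itgb2, Itgal, Itgam and Itgb3, were chosen after their values were seen. Summed levels are log2 of the sum of linear values over a list. The fit was tested on simulated data. Alternatives were other filters, scalings, variance models, a 2-fold limit, means over probe sets, chromosome medians, a replicate block, passages as replicates and leaving out arrays. Leaving out the 5 arrays of raised floor, and the comparison of P1 with later passages on marrow and lung, were chosen after seeing the data. Python 3.11.15 and matplotlib 3.10.9 made the figures.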

Additional observations from a re-analysis of the deposited data

Results flagged for a closer look

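A pair of comparisons tested a difference between tissues or between experiments directly, and 7 results passed. Of the 9 subunits, 5 passed between tissues and 2 between experiments, beside 23.6% and 13.3% of all genes. At P1 and P2, brain differed from marrow and lung in Itgb6 (-2.03 on the log2 scale), Itga2 (1.88), Itgb5 (-1.24), Itgb8 (-0.75) and Itgav (0.50). The second brain experiment differed from the first at the same passage numbers in Itgb6 (2.31) and Itgb5 (0.85). With no filter, Itgb8, Itgav and the Itgb5 difference between experiments were lost (limma, adjusted p = 0.1538, 0.1705 and 0.186). The early brain mean of Itgb6 and the marrow and lung P1 arrays of Itga2 lie under the filter value, so those sizes are less certain. The paper matched P1 and P2 of the second experiment to later points of the first series and reads this as faster adaptation. Equal passage numbers therefore need not be equal stages, and the stage was not tested here. Each tissue series and each experiment is 1 lineage, so tissue and lineage cannot be told apart.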

How the results depend on the processing

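Of 427 recomputed values of called subunits, 321 kept their call and 106 missed the threshold, and the cause was not tested. None changed sign. The filters, the 2-fold limit, the variance trend and means over probe sets leave a subunit's difference as it is, so its sign was fixed there. The same holds where the array left out is not part of the comparison. The share of all genes called was taken in the main fit only, so the counts below have none beside them. The number of called subunits at brain P1, P2, P3 and P4 (2, 3, 2 and 1) was 0 in each with no filter on low values and 0 in each without the 5 arrays of raised floor, a fit with 1 residual degree of freedom. With no filter, early against late brain and early brain against early marrow and lung called 3 each (5 in the report), the second against the first experiment 1 (2) and P1 against later passages on marrow and lung 0 (1). Without the 5 arrays these were 1, 1, 1 and 0. With a 2-fold limit they were 2, 3 and 1 for the first 3, and brain P1 called 1. With equal array medians brain P1 and P3 called 1 each and P4 2, and P4 also called 2 with the stricter filter of 7000 probe sets and with a variance trend. The second experiment against the parental cells called 1 with the stricter filter, with cyclic loess and with chromosome medians subtracted, breast called 1 with the last 2 of these, and marrow 1 with chromosome medians subtracted. With passages as replicates the second against the first experiment called 1. Second minus first differences of the pairs correlated at 0.01 to 0.36. The second arrays of the brain pairs share a technical replicate label and the raised floor, which the second parental array lacks. With the replicate block brain P1 called 4, Itga2 and Itgav higher and Itgb5 and Itgb6 lower, where the report calls the last 2. Leaving out 1 array gave 0 to 2 calls at brain P1, 0 to 3 at P2, 0 to 2 at P3, 0 to 1 at P4, 3 to 5 for early against late brain and for early brain against early marrow and lung, 1 to 2 for the second against the first experiment and 0 to 1 for P1 against later passages on marrow and lung. The low signal of Itgb6 in early brain limits the certainty of its difference from the parental cells.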
